A study of Mus musculus with 9 samples.

Results

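The MHC class II genes and the gene of their transactivator were followed over a tumour-derived cell fraction and blood of mice carrying a hepatoma. They were chosen by name: H2-Aa, H2-Ab1 and H2-Eb1, which encode chains of the surface molecules, the invariant chain gene Cd74, the transactivator gene Ciita, H2-DMa, H2-DMb1 and H2-DMb2, which encode the peptide exchange factor H2-DM, and H2-Oa and H2-Ob, which encode its inhibitor H2-O. All probes that are not controls and carry one of these gene names were taken. This gave 16 probes for the 10 genes, of 41174 probes and 27573 distinct gene names on the array. Of these 16 probes, 15 in 9 genes passed the filter on dim probes. The exception was the only probe of H2-Ob.

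The animals were 3 athymic BALB/c females (mice 832, 833 and 834), inoculated under the skin with cells of Hepa1-6, a mouse hepatoma line. From each mouse the day 10 TIC sample was the part of the ground tumour enriched in tumour-infiltrating inflammatory cells. The day 10 blood sample was blood taken 10 days after inoculation, and the day 0 blood sample was blood taken before it. Each of these 3 groups held 1 array per mouse. On every array the sample RNA carried the dye Cy5, and Cy3 marked the same reference throughout, RNA from blood of a female C57Bl/6 mouse that had received nothing. All sample mice were athymic and so lack a thymus and most T cells, while their B cells and myeloid cells remain. The TIC samples are an enriched fraction and not sorted cells, and their source label also reads blood, so the group was taken from the tissue label. The values below are log2 ratios of Cy5 over Cy3 or differences of these ratios, unless a sentence names another scale.

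MHC class II molecules present peptides taken up from outside the cell to helper T cells. They are typical of B cells, dendritic cells and macrophages, and in macrophages interferon gamma induces them through Ciita. CIITA does not bind DNA by itself but joins the RFX complex and NF-Y, which sit on the X and Y boxes of class II promoters, so that the genes of this family tend to be transcribed together. The invariant chain holds the groove of a new class II molecule closed, H2-DM exchanges its remnant for other peptides, and H2-O, found mostly in B cells, restrains H2-DM. BALB/c mice carry the H-2d haplotype, whereas C57BL/6 mice carry H-2b and express no H2-Ea, so sample and reference differ in the sequence of several class II genes. Hepa1-6 derives from a C57L mouse, also of the H-2b haplotype.

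The stretch of promoter that joins the family is shown for 6 members, from the RefSeq promoter table of assembly GRCm38.p6, which is of the C57BL/6 haplotype. Each stretch is read 5′ to 3′ on the gene's strand. Capitals mark the Y box letters TGATTGG and, before them, the X box letters GNAAC, AACNNATG or both joined.
H2-Aa: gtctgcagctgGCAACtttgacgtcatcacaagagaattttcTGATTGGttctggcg
H2-Eb1: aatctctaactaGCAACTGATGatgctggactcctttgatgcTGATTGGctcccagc
H2-DMb1: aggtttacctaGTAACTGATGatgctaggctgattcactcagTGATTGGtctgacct
H2-DMb2: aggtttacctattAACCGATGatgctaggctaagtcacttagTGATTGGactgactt
H2-Oa: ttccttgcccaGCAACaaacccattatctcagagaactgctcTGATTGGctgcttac
H2-Ob: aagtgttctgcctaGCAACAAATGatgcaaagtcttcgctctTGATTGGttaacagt

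These stretches lie at chr17:34287859-34287915 on the minus strand for H2-Aa. On the plus strand they lie at chr17:34305764-34305820 for H2-Eb1, chr17:34153086-34153142 for H2-DMb1, chr17:34145115-34145171 for H2-DMb2, chr17:34092292-34092348 for H2-Oa and chr17:34238804-34238860 for H2-Ob. The motif letters were picked with these sequences in view, and were searched on both strands in the 250 bases before each start. TGATTGG was found for 6 of the 7 members with a promoter in the table, and in 7.23% of all 32851 windows. The seventh, H2-DMa, had it in neither of its windows. AACNNATG followed by TGATTGG with 10 to 40 bases between them was found for 4 of the 7 members and in 0.0548% of all windows. GNAAC followed by TGATTGG at that spacing was found for 5 of the 7 and in 0.715%. By itself GNAAC was in 79.6% of all windows, and in H2-Aa and H2-Oa the marked X box letters are GNAAC only. The 2 X box motifs overlap in H2-Eb1, H2-DMb1 and H2-Ob. H2-Ab1, Cd74 and Ciita were not matched in the table. A match is a description of letters and no measurement of binding.

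In Cy5, spots well above background made up 48.2% to 55.1% of the TIC arrays, 14.2% to 21.0% of those of day 10 blood and 24.3% to 36.9% of those of day 0 blood. In the Cy3 reference it was 40.2% to 50.4% on all 9 arrays. The arrays lay on 3 slides. TIC and day 10 blood share no slide, so slide and group cannot be told apart there except through the day 0 arrays. Among members, all 15 tested probes were well above background on all TIC and all day 0 blood arrays. On all day 10 blood arrays 7 were, and H2-DMb2 was on none of them. All 16 probes were well above background in the reference on all 9 arrays. With 3 arrays a group, the number of arrays limits the precision.

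In the TIC samples, H2-Oa, Ciita, Cd74, H2-DMa and H2-DMb2 fell relative to both bloods in the loess-normalized ratio to the reference. Against day 10 blood only H2-Oa of these also passed the test with the authors' deposited ratio. H2-DMb2 was well above background in Cy5 on all 3 TIC arrays and on 0 day 10 blood arrays, and H2-DMa on 3 and 1. The difference of H2-DMa from day 10 blood turned to 0.39 with the deposited ratio and 0.55 with Cy5 alone. H2-Oa fell most, with log2 differences of -3.18 against day 10 blood and -3.71 against day 0 blood for its brighter probe. Of the probes of H2-Aa and H2-Ab1, 1 of each passed the test as higher in TIC than in day 10 blood. Neither passed with the mouse as a block (adjusted p = 0.0572 and 0.0592) or the slide as a block (adjusted p = 0.118 and 0.519). Both passed with the deposited ratio (adjusted p = 0.0163 and 0.0253), where 49% of all probes were higher. Both also passed with Cy5 alone (adjusted p = 0.012 and 0.00526), where 33.6% of all probes were. In day 10 blood all 15 tested probes had lower mean ratios than in day 0 blood, and no difference passed the test with all 9 arrays in the fit. The sizes of the TIC differences and many of their signs depended on how the arrays were scaled. The sign of the blood differences did not, as given further below. In whole blood and in a mixed cell fraction, fewer cells of a type and less RNA per cell cannot be told apart.

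**Figure D1:**
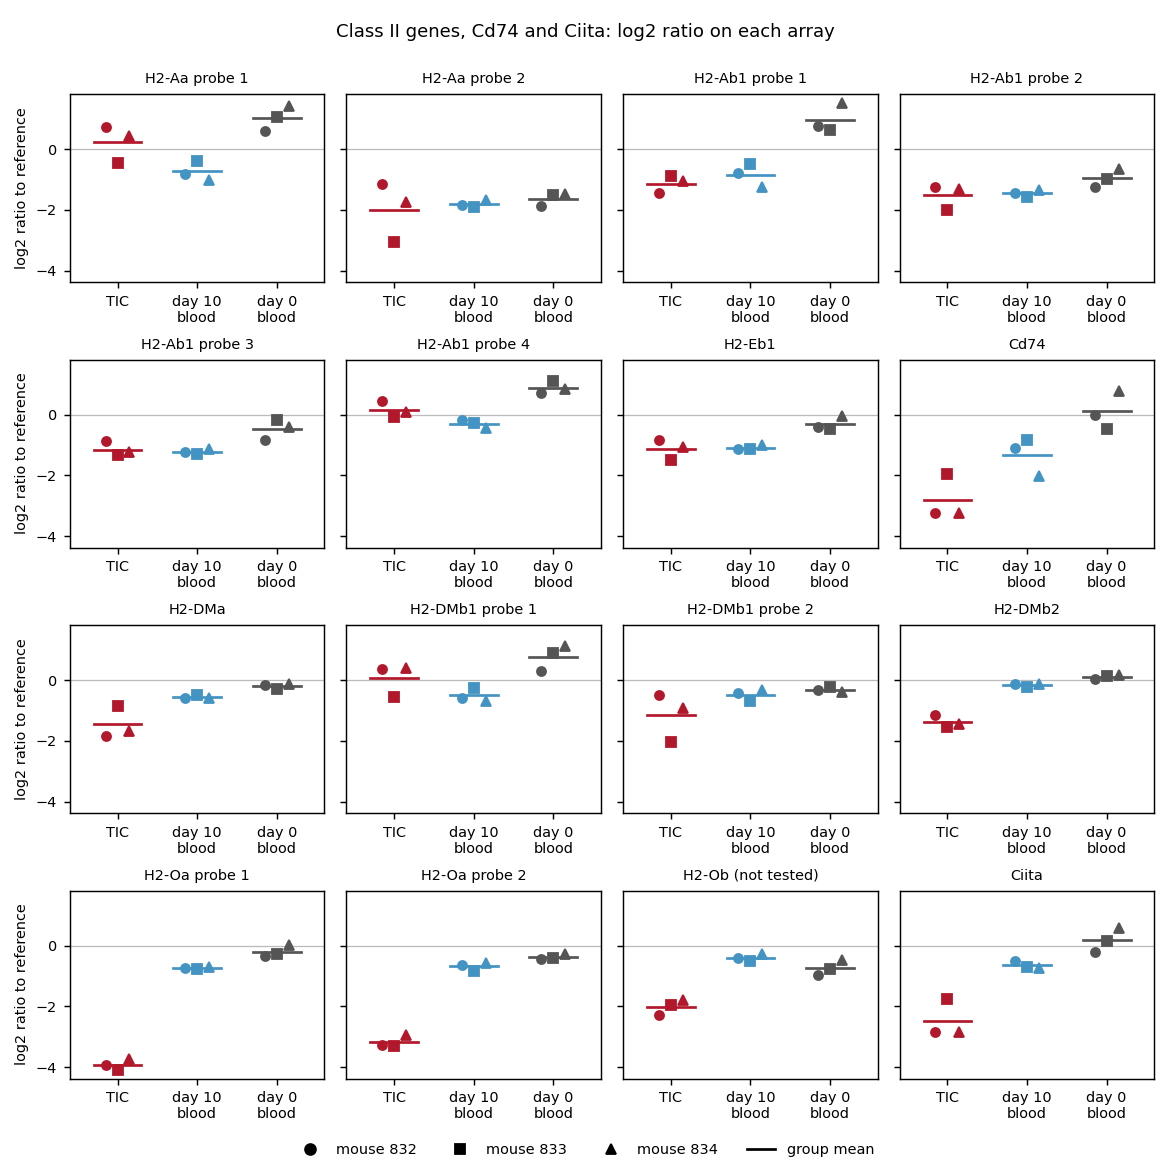
Log2 ratio of sample over reference (y axis) for each of the 16 member probes on each array, by group from left to right, TIC, day 10 blood and day 0 blood. Symbols are the 3 mice and the bars are group means. The 2 H2-Oa probes lie between -4.09 and -2.95 in TIC and between -0.84 and 0.02 in the bloods.

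The transactivator gene Ciita had log2 ratios of -2.84, -1.76 and -2.84 in TIC of mice 832, 833 and 834. It had -0.49, -0.69 and -0.72 in day 10 blood and -0.22, 0.15 and 0.59 in day 0 blood. The 3 groups did not overlap, and TIC of mouse 833 was the highest of its group. Ciita fell by 1.85 in TIC against day 10 blood (SE 0.31, adjusted p = 0.000918) and fell by 2.65 against day 0 blood (SE 0.31, adjusted p = 0.000134). The call against day 10 blood was lost with the deposited ratio (-0.79, adjusted p = 0.311) and with Cy5 alone (-0.31, adjusted p = 0.501), and median centring turned it to 1.3 (adjusted p = 0.00525). Its mean difference of day 10 minus day 0 blood was -0.81 (95% interval -1.51 to -0.10, adjusted p = 0.298). The Ciita probe lies at chr16:10439788-10439847 of mouse build mm8, as all probe positions here, which the files give.

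Cd74, the invariant chain gene on chromosome 18, had log2 ratios of -3.22, -1.94 and -3.22 in TIC. In day 10 blood it had -1.1, -0.85 and -2.01, and in day 0 blood 0.00, -0.47 and 0.78. TIC of mouse 833 overlapped with day 10 blood of mouse 834, and neither overlapped with day 0 blood. Cd74 fell by 1.47 in TIC against day 10 blood (SE 0.46, adjusted p = 0.0207) and fell by 2.90 against day 0 blood (SE 0.46, adjusted p = 0.000779). The call against day 10 blood was lost with the deposited ratio (-0.95, adjusted p = 0.15) and with Cy5 alone (-0.58, adjusted p = 0.225). Median centring turned both differences, to 3.71 and 1.37. Day 10 minus day 0 blood was -1.42 (95% interval -2.48 to -0.37, adjusted p = 0.231).

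H2-Aa, the gene of the I-A alpha chain, had 2 probes that gave different accounts. Its brighter probe, at chr17:33892022-33892081, had log2 ratios of 0.72, -0.47 and 0.42 in TIC, -0.82, -0.38 and -1.0 in day 10 blood and 0.60, 1.04 and 1.41 in day 0 blood. TIC of mouse 833 lay among the day 10 bloods and TIC of mouse 832 among the day 0 bloods. This probe rose by 0.96 in TIC against day 10 blood (SE 0.33, adjusted p = 0.0304). With the mouse as a block that call was lost (adjusted p = 0.0572), as with the slide as a block (1.3, adjusted p = 0.118). It held with the deposited ratio (1.43, adjusted p = 0.0163), with Cy5 alone (1.36, adjusted p = 0.012) and with median centring (5.49, adjusted p = 0.000301). Against day 0 blood its difference in TIC was -0.80 (95% interval -1.55 to -0.05, adjusted p = 0.0612), and day 10 minus day 0 blood was -1.75 (95% interval -2.50 to -1.0, adjusted p = 0.0766). The dimmer probe, at chr17:33892680-33892739, had -1.15, -3.07 and -1.75 in TIC, -1.85, -1.89 and -1.68 in day 10 blood and -1.88, -1.51 and -1.49 in day 0 blood. Its groups overlapped, and its 3 differences lay between -0.36 and -0.18, none past the test.

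H2-Ab1, the gene of the I-A beta chain, had 4 probes, numbered by mean intensity. The brightest, at chr17:33877309-33877368, had log2 ratios of -1.46, -0.90 and -1.04 in TIC, -0.79, -0.48 and -1.26 in day 10 blood and 0.75, 0.62 and 1.53 in day 0 blood. TIC and day 10 blood overlapped, and day 0 blood stood above both. In TIC it fell by 2.10 against day 0 blood (SE 0.29, adjusted p = 0.000322), a call lost in Cy5 alone (-0.44, adjusted p = 0.209), where the reference signal has no part. It differed from day 10 blood by -0.29 (95% interval -0.94 to 0.37, adjusted p = 0.397). Day 10 minus day 0 blood was -1.81 (95% interval -2.47 to -1.16, adjusted p = 0.0651).

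The H2-Ab1 probe repeated in 10 spots, the second in intensity, at chr17:33875638-33875697, had -1.25, -2.0 and -1.32 in TIC, -1.45, -1.57 and -1.36 in day 10 blood and -1.24, -0.98 and -0.65 in day 0 blood. The SD between its spots was 0.067 to 0.226 within an array. In TIC it fell by 0.56 against day 0 blood (SE 0.22, adjusted p = 0.0499), a call at the edge of the threshold. The third probe, at chr17:33872973-33873032, fell by 0.68 in the same comparison (SE 0.19, adjusted p = 0.0124). Its log2 ratios were -0.87, -1.34 and -1.24 in TIC, -1.22, -1.30 and -1.12 in day 10 blood and -0.84, -0.18 and -0.40 in day 0 blood. The fourth, without a position in the files, had 0.45, -0.07 and 0.07 in TIC, -0.17, -0.29 and -0.44 in day 10 blood and 0.70, 1.12 and 0.85 in day 0 blood. Its groups did not overlap. It rose by 0.45 in TIC against day 10 blood (SE 0.16, adjusted p = 0.0373) and fell by 0.74 against day 0 blood (SE 0.16, adjusted p = 0.0045). The rise was lost with the mouse as a block (adjusted p = 0.0592) and with the slide as a block (0.24, adjusted p = 0.519). It held with the deposited ratio (1.15, adjusted p = 0.0253), with Cy5 alone (1.18, adjusted p = 0.00526) and with median centring (4.03, adjusted p = 0.000214). The falls of these 3 probes against day 0 blood did not pass with the deposited ratio (adjusted p = 0.271, 0.273 and 0.0753) or with Cy5 alone (adjusted p = 0.453, 0.188 and 0.168). The day 10 minus day 0 blood difference of the last of them, -1.19 (95% interval -1.57 to -0.82), had the smallest adjusted p of any member between the bloods, 0.056.

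H2-Eb1, the gene of the I-E beta chain, had log2 ratios of -0.82, -1.50 and -1.05 in TIC, -1.12, -1.14 and -1.01 in day 10 blood and -0.41, -0.48 and -0.03 in day 0 blood. TIC surrounded day 10 blood, and both lay below day 0 blood. It fell by 0.82 in TIC against day 0 blood (SE 0.19, adjusted p = 0.00502), and TIC minus day 10 blood was -0.03 (95% interval -0.46 to 0.39). Its probe, at chr17:33922800-33923261, is listed as H2-Eb1 by name and position, while its text in the files describes an I-A beta chain, so its gene is uncertain.

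Of the H2-DM genes, H2-DMa, for the alpha chain, with its probe at chr17:33747809-33748372, had log2 ratios of -1.83, -0.86 and -1.68 in TIC, -0.59, -0.48 and -0.58 in day 10 blood and -0.15, -0.30 and -0.13 in day 0 blood. The groups did not overlap. H2-DMa fell by 0.91 in TIC against day 10 blood (SE 0.22, adjusted p = 0.00727) and fell by 1.26 against day 0 blood (SE 0.22, adjusted p = 0.00145). It was well above background on 1 of the 3 day 10 blood arrays. Its difference from day 10 blood was 0.39 with the deposited ratio, 0.55 with Cy5 alone and 2.08 with median centring, so that the direction turned. Its difference from day 0 blood was -1.35 with the deposited ratio, -0.70 with Cy5 alone (adjusted p = 0.0582) and 1.21 with median centring. H2-DMb2, one of the genes of the beta chain, with its probe at chr17:33758478-33758538, had -1.16, -1.53 and -1.43 in TIC, -0.12, -0.24 and -0.12 in day 10 blood and 0.04, 0.15 and 0.16 in day 0 blood. It fell by 1.49 in TIC against day 0 blood (SE 0.11, adjusted p = 1.47e-05) with no overlap. In TIC against day 10 blood it also fell (adjusted p = 2.84e-05), which did not pass with the deposited ratio (-0.85, adjusted p = 0.179) or with Cy5 alone (-0.19, adjusted p = 0.293), and no fold is given there because it was not well above background in day 10 blood. For the same reason no fold is given between the bloods, where the adjusted p was 0.34.

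H2-DMb1, the other beta chain gene, again had probes that differed. The brighter, at chr17:33767055-33767114, had log2 ratios of 0.38, -0.55 and 0.39 in TIC, -0.58, -0.25 and -0.67 in day 10 blood and 0.31, 0.90 and 1.11 in day 0 blood, with mouse 833 lowest in TIC as for H2-Aa. The dimmer, at chr17:33766456-33766515, whose listed accessions include both H2-DMb1 and H2-DMb2, so that the genes cannot be told apart, had -0.49, -2.03 and -0.92 in TIC, -0.43, -0.69 and -0.32 in day 10 blood and -0.32, -0.21 and -0.40 in day 0 blood. No difference of either probe passed the test. The TIC minus day 10 blood difference was 0.57 (95% interval -0.10 to 1.24) for the brighter probe and -0.67 (95% interval -1.43 to 0.09) for the dimmer.

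H2-Oa, the gene of the H2-O alpha chain, stood apart in TIC on both probes. The brighter, at chr17:33705542-33705601, had log2 ratios of -3.91, -4.09 and -3.73 in TIC, -0.73, -0.77 and -0.69 in day 10 blood and -0.35, -0.28 and 0.02 in day 0 blood. The dimmer, at chr17:33705473-33705533, had -3.26, -3.30 and -2.95 in TIC, -0.62, -0.84 and -0.58 in day 10 blood and -0.45, -0.42 and -0.29 in day 0 blood. On both probes the 3 groups did not overlap, and TIC lay over 2 log2 units below every blood array. The brighter probe fell by 3.18 in TIC against day 10 blood (SE 0.13, adjusted p = 8.92e-07) and fell by 3.71 against day 0 blood (SE 0.13, adjusted p = 9.83e-07). The dimmer fell by 2.49 (SE 0.13, adjusted p = 1.8e-06) and fell by 2.78 (SE 0.13, adjusted p = 1.89e-06) in these comparisons. It was well above background on 1 of the 3 day 10 blood arrays, and with Cy5 alone it differed from day 10 blood by -0.41 (adjusted p = 0.0774). Day 10 minus day 0 blood was -0.53 (95% interval -0.82 to -0.23) for the brighter and -0.29 (95% interval -0.58 to -0.01) for the dimmer probe, with adjusted p of 0.146 and 0.357.

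The probe of H2-Ob, for the H2-O beta chain, at chr17:33852080-33852311, stayed below that level in Cy5 on all 9 arrays and has no test. Its reference signal was well above background on all 9 arrays, and its log2 ratios were -2.29, -1.95 and -1.78 in TIC, -0.40, -0.51 and -0.27 in day 10 blood and -0.95, -0.78 and -0.46 in day 0 blood. With Cy5 below background in all groups, no fold between groups is given.

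**Figure D2:**
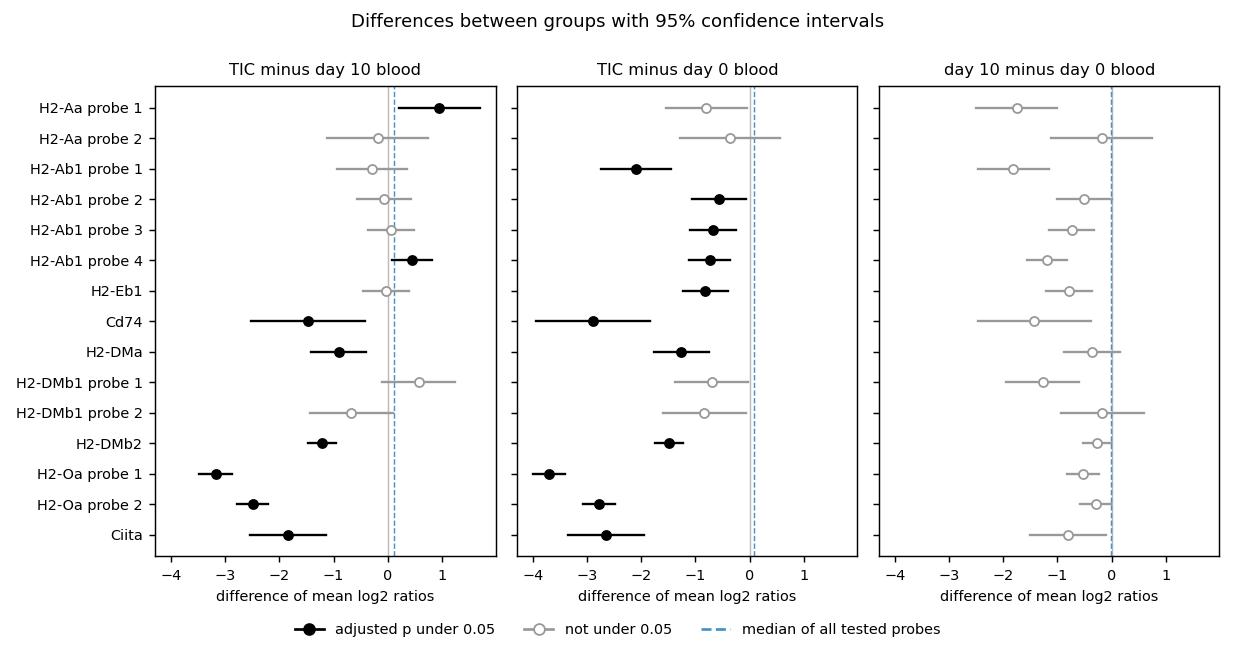
Difference of mean log2 ratios (x axis) for the 15 tested probes in the 3 comparisons, with 95% confidence intervals of the limma fit. Filled points have an adjusted p under 0.05 and the dashed line is the median of all tested probes. TIC minus day 0 blood is below 0 for all 15 probes, and day 10 minus day 0 blood is too, with none filled.

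Counted over probes, TIC against day 10 blood gave 6 member probes lower and 2 higher past the test, against 30% of all 19995 tested probes lower and 35.8% higher. The members' median difference was -0.29 and that of all probes 0.12. With the mouse as a block 6 were lower and 0 higher, against 29.8% and 34.3% of all probes. Without the TIC array of mouse 833, the brighter H2-DMb1 probe was also higher, by 0.88 (adjusted p = 0.00523), making 3 higher, against 41.3% of all probes. For 5 of the 15 probes all TIC arrays lay below all day 10 blood arrays, where 31.8% of all probes did. Adding the slide as a block left 3 lower calls, near the 17.1% of all probes that were lower in that fit. They were both probes of H2-Oa and H2-DMb2, with H2-Oa at -2.85 (adjusted p = 0.00125) and -2.30 (adjusted p = 0.00259). Under that block Cd74 was at -0.24 (adjusted p = 0.839) and Ciita at -1.03 (adjusted p = 0.186).

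Against day 0 blood, 11 of the 15 probes were lower in TIC and 0 higher, with 30.7% and 32.9% of all probes called in these directions. The probes not called were both of H2-Aa and both of H2-DMb1. The members' median was -0.84 and that of all probes 0.07. The groups did not overlap, with TIC lower, for 12 of the 15, and for 32% of all probes. Slide 2 held TIC of mice 833 and 834 and day 0 blood of mice 832 and 833. Within it 6 of the 15 probes were lower past the test, against 15% of all probes, and H2-Oa at -3.60 and -2.69, Ciita at -2.26, Cd74 at -2.34, H2-DMb2 at -1.57 and the brightest H2-Ab1 probe at -1.65 kept their direction.

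Between the bloods, 0 of the 15 probes passed limma's test in either direction, while 0.02% of all probes passed lower and 0.04% higher. At an unadjusted p under 0.05 there were 11 of the 15, all lower, against 13.6% of all probes in either direction. Day 10 blood lay wholly below day 0 blood for 13 of the 15, where 16.3% of all probes did. The median was -0.74 for the members and -0.02 for all probes. The fit shares 1 estimate of spread over the 3 groups.

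Without the TIC array of mouse 833, 10 of the 15 probes were lower between the bloods, where 2.99% of all probes were. Among them were Ciita (adjusted p = 0.0351), Cd74 (adjusted p = 0.048) and the brighter H2-Aa probe (adjusted p = 0.00941). Leaving out any other 1 array gave 0 member probes lower, where at most 0.015% of all probes were. The slide as a block and the mouse as a block on all 9 arrays also gave 0. Fitting the 2 blood groups alone gave 6 lower, against 2.22% of all, and with the mouse as a block as well 9, against 4.59%. In that last fit the adjusted p of Ciita was 0.0479, of the brighter H2-Aa probe 0.00715 and of H2-Eb1 0.00819. Slide 3 held all 3 day 10 bloods and day 0 blood of mouse 834. Within it 10 probes were lower, against 2.29% of all, a fit that assumes the lone day 0 array to vary like the others. That array had the highest day 0 values of Ciita, Cd74 and the brighter H2-Aa probe.

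How the arrays were scaled mattered for TIC. The authors' deposited log ratio is dye-normalized by the scanner software without the offset used here. A further scale is the Cy5 channel alone, quantile normalized between arrays. In the last, ratios were only centred on each array's median. These moved the median of all probes for TIC minus day 10 blood to 1.06, 0.21 and 1.18. The members' median in that comparison was 0.53 with the deposited ratio, 0.55 with Cy5 alone and 4.03 with median centring. With the deposited ratio 6 were higher and 2 lower, against 49% and 23.3% of all probes. Cy5 alone gave 7 higher and 1 lower, against 33.6% and 19.9%. Median centring gave 12 higher and 0 lower, against 70.8% and 2.77%. No member was below 0 under all scalings. H2-Oa kept its fall against day 10 blood with the deposited ratio (-3.70 and -2.34), and with Cy5 alone it was at -1.40 (adjusted p = 6.2e-05) and -0.41 (adjusted p = 0.0774). Under median centring it was at 0.24 and 0.28, below the median of all probes.

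**Figure D3:**
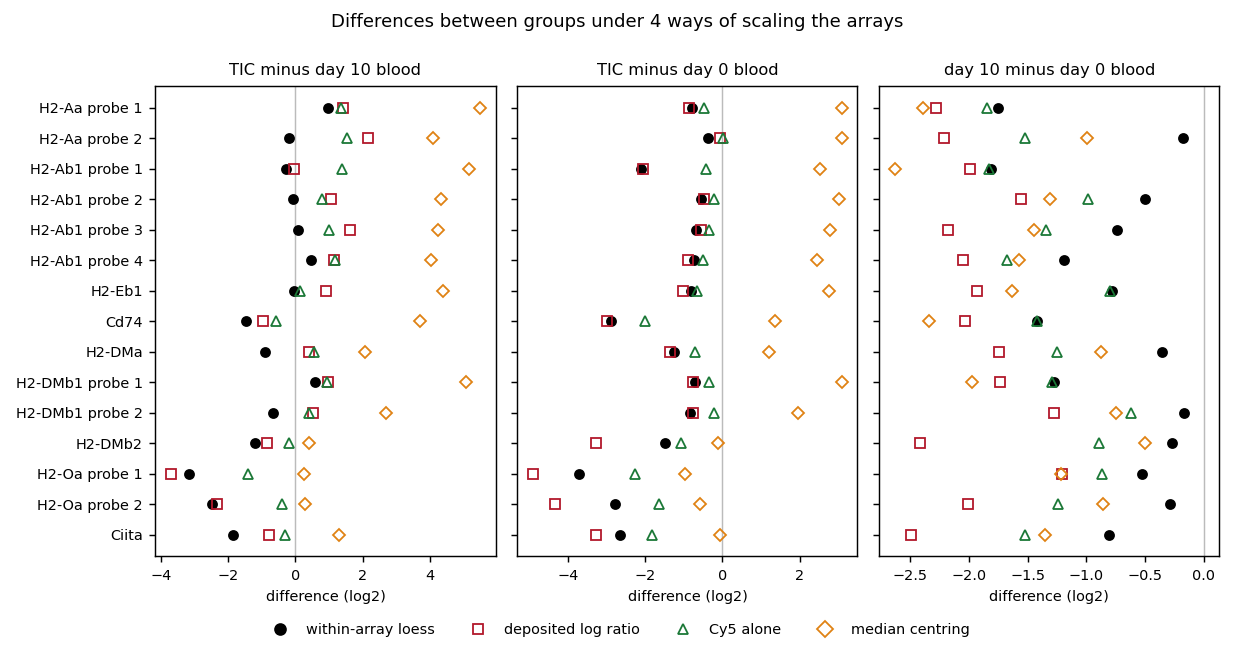
Difference between groups in log2 units (x axis) for the 15 tested probes in the 3 comparisons under 4 scalings of the arrays. Median centring places most members at or above 0 in both TIC comparisons, whereas all points lie below 0 for day 10 minus day 0 blood. The panels have separate x axes.

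For TIC minus day 0 blood the median of all probes was 0.55 with the deposited ratio, 0.14 with Cy5 alone and 1.0 with median centring. Members lower and past the test were 8 with the deposited ratio, against 23.8% of all probes, and 6 with Cy5 alone, against 19.4%. Under median centring 11 were higher and 2 lower, against 65.4% and 4.96% of all probes. The 2 were the probes of H2-Oa, at -0.98 and -0.57. Both H2-Oa probes, Ciita and H2-DMb2 were below 0 under every scaling run, Ciita at -0.05 and H2-DMb2 at -0.10 under median centring. Between the bloods every scaling placed all 15 members below 0, with medians of -2.01, -1.29 and -1.35, where the medians of all probes were -0.22, -0.06 and -0.14. The deposited ratio gave 9 lower, against 3.47% of all probes, Cy5 alone 10, against 2.09%, and median centring 0.

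Scaling that adds 1 constant to a whole array cancels in the difference between 2 members on that array. Loess and quantile normalization depend on intensity, so they need not cancel. The mean log2 intensity was 9.61 for the brighter H2-Aa probe and 7.99 for the brighter H2-Oa probe. On the log2 ratio scale, the brighter H2-Aa probe minus the brighter H2-Oa probe was 4.63, 3.62 and 4.16 in TIC, -0.09, 0.40 and -0.31 in day 10 blood and 0.95, 1.32 and 1.40 in day 0 blood. TIC did not overlap with the bloods. The mean in TIC was 5.47 with the deposited ratio, 4.96 with median centring and 3.39 with Cy5 alone. The means in day 10 blood were 0.34, -0.29 and 0.63, and those in day 0 blood 1.41, 0.88 and 1.61, again with no overlap between TIC and blood on any of these scales. The pair was chosen after the values were seen, so these values are a description with no test.

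H2-Aa minus Ciita, likewise, was 3.56, 1.29 and 3.26 in TIC, -0.33, 0.31 and -0.28 in day 10 blood and 0.82, 0.89 and 0.82 in day 0 blood. With the deposited ratio the TIC and day 10 blood values overlapped, with means of 3.22 and 1.0. TIC of mouse 833 was lowest in its group on H2-Aa, H2-DMb1 and H2-Ea, and highest on Cd74, Ciita and H2-DMa.

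Probes of one gene differed from each other in the ratio to the C57Bl/6 reference. The brighter H2-Aa probe lay above the dimmer by 1.87, 2.6 and 2.17 in TIC, 1.03, 1.51 and 0.68 in day 10 blood and 2.48, 2.55 and 2.91 in day 0 blood. With the deposited ratio this gap was 2.69 ± 0.45 in TIC, 3.43 ± 0.35 in day 10 blood and 3.49 ± 0.24 in day 0 blood (SD, n = 3 each). The dimmer probe was well above background on 1 of the 3 day 10 blood arrays, and the offset of 50 draws dim probes towards a ratio of 0. With the deposited ratio day 10 minus day 0 blood was -2.28 for the brighter and -2.22 for the dimmer probe. Whether the haplotypes differ at the positions of these probes was not tested, since the probe sequences are not used here.

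The reference channel of the brightest H2-Ab1 probe was not level across arrays. Its Cy3 log2 signal was 12.84, 12.06 and 12.57 on the TIC arrays, 11.46, 11.47 and 11.46 on the day 10 blood arrays and 11.49, 11.63 and 11.64 on the day 0 blood arrays. The RNA in that channel was the same on all of them. Its Cy5 log2 signal was 11.29, 10.66 and 11.17 in TIC, 9.67, 10.02 and 9.23 in day 10 blood and 11.26, 11.22 and 11.92 in day 0 blood. In Cy5 alone TIC was thus higher than day 10 blood by 1.39 (adjusted p = 0.00168), where the ratio gave -0.29, and differed from day 0 blood by -0.44 (adjusted p = 0.209), where the ratio gave -2.10. The brighter H2-Aa probe had Cy3 log2 signals between 9.70 and 9.89 on all arrays. Other members shifted too. Cy3 of the fourth H2-Ab1 probe was 8.62, 8.47 and 8.45 on TIC arrays and 8.06, 8.09 and 8.15 on day 10 blood arrays. For H2-Eb1 it was 9.79, 9.71 and 9.54 on TIC arrays and 10.03, 10.02 and 9.92 on day 10 blood arrays.

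**Figure D4:**
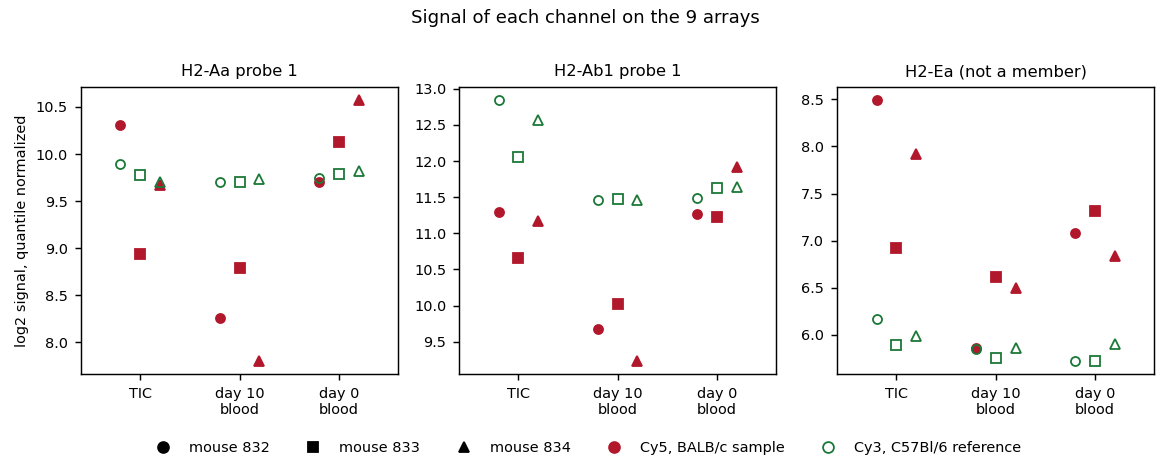
Log2 signal after quantile normalization (y axis, not starting at 0) in Cy5, the BALB/c sample, and Cy3, the C57Bl/6 reference, on the 9 arrays for H2-Aa, H2-Ab1 and H2-Ea. For the brightest H2-Ab1 probe, Cy3 lies at 12.06 to 12.84 on TIC arrays and at 11.46 to 11.64 on blood arrays.

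H2-Ea, the gene of the I-E alpha chain and not a member, is the one of the family that the reference strain does not express. It was well above background in Cy5 on all TIC and all day 0 blood arrays and on no day 10 blood array, and in Cy3 on 1 of the 9 arrays. Its log2 ratios were 3.28, 1.1 and 2.79 in TIC, 0.03, 0.31 and 0.17 in day 10 blood and 1.19, 1.31 and 0.45 in day 0 blood. It rose in TIC against day 10 blood (adjusted p = 0.0044), a call that held under every scaling run, and no fold is given because it was not well above background in day 10 blood. Against day 0 blood it rose by 1.41 (SE 0.50, adjusted p = 0.0349), which was -0.24 with the deposited ratio, and TIC of mouse 833 lay below 2 of the day 0 bloods. With the mouse as a block that call was lost (adjusted p = 0.0519). Between the bloods its adjusted p was 0.567. For H2-Eb2, neither of its 2 probes reached that level in Cy5.

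Genes that act with class II were read from 4 lists. Of 6 tested genes of the promoter complex, 1 was higher and 3 were lower in TIC than in day 10 blood, with a list median of -0.11. Rfxap, a subunit of RFX, rose by 1.22 (SE 0.26, adjusted p = 0.0035), whereas Rfxank, another, fell by 0.78 (SE 0.27, adjusted p = 0.0316). Nfyb, a subunit of NF-Y, fell by 0.30 (SE 0.10, adjusted p = 0.0319). Against day 0 blood 1 was higher and 2 were lower (median -0.21). With the deposited ratio, Cy5 alone and median centring its median was above 0 in both TIC comparisons, at 0.20 to 1.42 against day 10 blood and 0.13 to 1.28 against day 0 blood. Rfx5 was on the array and was not tested.

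Of 13 inducers and regulators of Ciita, 5 fell and 2 rose in TIC against day 10 blood (median -0.29), where 30% of all probes fell and 35.8% rose. In TIC against day 0 blood 7 fell and 1 rose (median -0.64), where 30.7% of all probes fell and 32.9% rose. These shares of all probes stand against the other lists' counts too. Jak1, a kinase of the interferon receptors, fell by 3.41 (SE 0.44, adjusted p = 0.000203) against day 10 blood and fell by 3.56 (SE 0.44, adjusted p = 0.000185) against day 0 blood. Pax5, a B cell factor, fell by 1.63 against day 0 blood (SE 0.22, adjusted p = 0.000278). The medians were 2.79 and 1.98 with median centring, and 0.12 against day 10 blood with Cy5 alone.

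Of 5 antigen processing genes 3 rose in TIC against day 10 blood and 0 fell (median 0.97). Ctsl, Ctsh and Ctss encode lysosomal cathepsins, and cathepsin S trims the invariant chain. Ctsl rose by 2.66 (SE 0.45, adjusted p = 0.000964), Ctsh by 1.80 (SE 0.27, adjusted p = 0.000451) and Ctss by 0.97 (SE 0.31, adjusted p = 0.0235), and the list's median was above 0 under every scaling run. Against day 0 blood 2 rose and 1 fell. The fall was of Ifi30, a thiol reductase of the antigen pathway, by 1.36 (SE 0.29, adjusted p = 0.00361), while Lgmn, an asparaginyl protease, rose by 1.1 (SE 0.25, adjusted p = 0.00505).

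Among 5 surface partners and turnover genes, Marchf1, a ubiquitin ligase that removes class II from the surface, fell by 1.85 in TIC against day 10 blood (SE 0.17, adjusted p = 2.84e-05). Cd80, a costimulatory ligand, rose (adjusted p = 0.0183) and was not well above background in either blood. Against day 0 blood 1 of these genes rose and 2 fell. Between the bloods none of the 29 tested genes of these lists passed the test with the 9 arrays, where 0.04% and 0.02% of all probes did.

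Markers of cell types were read from lists in the same way. The 16 tested B cell markers all fell in TIC against both bloods (medians -2.93 and -3.87). The B cell markers' mean log2 Cy5 signal was 5.98 to 6.08 in TIC, between 7.14 and 7.83 in day 10 blood and 8.69 to 8.91 before inoculation, and 8 to 14 of them were well above background on a TIC array. With median centring their medians were -0.36 and -1.48. Among them Tnfrsf13c, the BAFF receptor gene, fell by 3.17 in TIC against day 10 blood (SE 0.16, adjusted p = 1.67e-06). Ms4a1, the CD20 gene, fell by 7.47 against day 0 blood (SE 0.30, adjusted p = 1.4e-06).

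Of 14 macrophage and monocyte markers 8 rose and 1 fell in TIC against each blood (medians 0.61 and 0.72), and all 14 were well above background on every TIC array. Mrc1, a mannose receptor of macrophages, rose in TIC and was not well above background in either blood. Of 11 listed dendritic cell markers 6 were tested. In TIC 1 of them rose and 3 fell against day 10 blood (median -0.06), and 2 rose and 3 fell against day 0 blood (median 0.14). Against day 10 blood the falls with the smallest p were of Zbtb46, a transcription factor, at -9.57 (SE 0.46), and Ccr7, a homing receptor, at -2.54 (SE 0.13). The marker that rose there was Clec10a, a lectin, named after its value was seen (adjusted p = 0.000384) and not well above background in either blood. In day 10 minus day 0 blood Zbtb46 was at 1.48 (adjusted p = 0.219). The erythroid markers had medians of -6.23 in TIC against day 10 blood and 1.02 between the bloods. What cells gave the Zbtb46 signal was not tested. Of 11 hepatocyte and hepatoma markers 9 rose in TIC against day 10 blood and 10 against day 0 blood, and 10 or 11 of them were well above background on each TIC array. The 7 tested T cell markers and the 9 erythroid markers fell in TIC against both bloods, as did 6 and 8 of the 9 neutrophil markers and 3 of the 4 pan-leukocyte markers. With median centring the medians of the T cell markers (0.51 and 0.18) and, against day 10 blood, of the neutrophil markers (0.25) were above 0. Those of the pan-leukocyte markers were above 0 against both bloods (2.06 and 0.92). What part these cell types have in the class II values was not tested.

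Between the bloods 15 of the 16 B cell markers had lower means in day 10 blood (median -0.81), and 1, Tnfrsf13c, fell past the test, by 1.29 (SE 0.16, adjusted p = 0.0472). All 16 were well above background on each day 0 blood array and 8 to 15 on a day 10 blood array. The erythroid markers had a median of 1.02 and none passed. Medians of the other lists were -0.02 for macrophage and monocyte, 0.08 for dendritic cell, 0.47 for T cell, -0.35 for neutrophil, 0.0048 for hepatocyte and hepatoma, and -0.30 for pan-leukocyte markers. The part of any of these in the class II difference between the bloods was not tested.

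Patterns over the 9 arrays were compared by the root mean square difference of log2 ratios after each gene was centred on its own mean, among 11925 genes with a symbol. This is a description, and the arrays share the reference. Nearest to Ciita were Arhgap45 (0.20), Fam107b (0.22) and Crlf3 (0.24), while Cd74 was at 0.43 from it. For Cd74 they were Arpc1b (0.40), Btg1 (0.46) and Cdip1 (0.46). Nearest to the brighter H2-Aa probe were Ctss (0.43), Ly6c1 (0.44) and Arpc5l (0.44), and among members the brighter H2-DMb1 probe was closer, at 0.23. H2-Oa was at 1.76 from H2-Aa and at 0.69 from Ciita.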

How the data were processed

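Each of the 9 arrays was deposited as Agilent Feature Extraction output (version 10.5.1.1 per the file headers, 9.1.3.1 per the submitters' processing notes), with Cy5 and Cy3 intensities per spot that had not been normalized between arrays. The authors' log10 ratio of Cy5 over Cy3, background-subtracted and dye-normalized by that software per the file headers, was identical in the scanner files and the deposited value table, and is used here in log2 units. From the deposited intensities, log2 ratios were computed with limma 3.58.1 in R 4.3.3 (normexp with an offset of 50, then loess within each array, with control spots at weight 0). Spots of a probe were averaged, and probes were tested where Cy5 was well above background on 3 or more arrays, 19995 in all.

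Groups came from the tissue and time labels. limma's moderated test was fitted per probe on all 9 arrays with group only (6 residual degrees of freedom), with Benjamini-Hochberg adjustment over all tested probes at 0.05, and its intervals are 95% intervals. Mouse numbers pair the samples, as the labels give the same mice, and blood samples of the same mouse deviated together (correlations of 0.18, 0.32 and 0.24), while TIC and blood of the same mouse had correlations of -0.06 to 0.06. Gene names were taken from RefSeq by accession for 23374 probes, by symbol for 6733 and by synonym for 2919, and from the files for 8148. The limma fit was tested on simulated normalized values with 200 of 19995 probes changed. It called 65.7% of those changed by 1 log2 unit and 94.0% of those changed by 2 for TIC against day 10 blood. The shares were 67.2% and 89.6% for TIC against day 0 blood, and 65.7% and 92.5% for day 10 against day 0 blood. Background correction and loess were not simulated. In the data 65.8% and 63.6% of all probes were called in the TIC comparisons, so the simulated rates may not hold there. All members are named with all their probes. Listed pathway genes are named by smallest p (up to 3 per list and comparison), markers likewise (up to 2), or where not measured. The members, lists and alternatives were chosen with earlier results of these data known. Not on the array under these names were H2-Ea-ps, Ly6g, Ahsp and Hbb-b1. Listed markers on the array but not tested were Blk, Flt3, Clec9a, Cd209a, Siglech, Fscn1, Cd4, Cd8a, Cd28, Hba-a1 and Ttr. The values of 1 listed gene are not reported here.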

Additional observations from a re-analysis of the deposited data

Results flagged for a closer look

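Among the 16 member probes, the Cy3 reference signal over the 9 arrays had a sample far from the others for 2 probes. Cd74 had a Cy3 log2 signal of 12.15 on the TIC array of mouse 832, with the nearest array at 11.83. H2-DMa had 7.96 on the TIC array of mouse 834, with the nearest at 8.04. Chance alone gives such a gap in about 1 in 20 groups, and 16 were examined.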

How the results depend on the processing

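With the authors' deposited ratio, member probes called higher in TIC than in day 10 blood numbered 6 and lower 2, against 2 and 6 in the fit reported. Of all probes 49% and 23.3% were called with the deposited ratio, against 35.8% and 30% in the fit reported. The numbers were 12 and 0 with median centring (70.8% and 2.77% of all probes) and 7 and 1 with Cy5 alone (33.6% and 19.9%). They were 5 and 2 with the deposited ratio and the replicate block (49.3% and 23.6%). Higher calls were 1 with no filter (18.3% of all probes), with 2 groups only (31.3%) and with 1 probe per gene (34.4%). They were 0 with the replicate block on all 9 arrays (34.3%) or 2 groups only (25.3%). Probes above background on 9 arrays gave 1 higher and 2 lower of 7 (17.4% and 58.6% of all such probes). The slide as a block gave 0 and 3 (9.47% and 17.1%), and mouse and slide as blocks 0 and 2 (1.22% and 5.26%). Leaving out 1 array gave 0 to 3 higher and 5 to 6 lower, against 29.2% to 41.3% and 27.0% to 33.7% of all probes.

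For TIC against day 0 blood, with 0 higher and 11 lower, median centring gave 11 and 2 (65.4% and 4.96% of all probes). Lower calls were 6 with Cy5 alone (19.4% of all probes) and 4 of 7 above background on 9 arrays (59.0% of all such probes). They were 7 of 9 with 1 probe per gene (33.6%), 6 within slide 2 (15.0%), and 10 to 13 with 1 array left out (28.1% to 34.6%). Between the bloods, with 0 lower, the calls were 9 with the deposited ratio (3.47% of all probes) and 10 with Cy5 alone (2.09%). They were 2 of 7 above background on 9 arrays (1.23% of all such probes) and 6 with 2 groups only (2.22%). With the replicate block they were 9 with 2 groups only (4.59%) and 6 with the deposited ratio (2.87%). With the ratios reported, the replicate block on all 9 arrays gave 0, as did the slide as a block. Without TIC of mouse 833 they were 10 (2.99%), and without any other 1 array 0. The replicate block on all 9 arrays gave 12 lower in TIC against day 0 blood, where 30.4% of all probes were. It added the dimmer H2-DMb1 probe (adjusted p = 0.0497), and changed no other member call than those printed.

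Signs turned in TIC minus day 10 blood as follows. With Cy5 alone the dimmer H2-Aa probe was at 1.54, the first 2 H2-Ab1 probes at 1.39 and 0.78, H2-Eb1 at 0.15, H2-DMa at 0.55 and the dimmer H2-DMb1 probe at 0.42. With the deposited ratio, with or without the replicate block, the dimmer H2-Aa probe was at 2.16, the second H2-Ab1 probe at 1.07, H2-Eb1 at 0.92, H2-DMa at 0.39 and the dimmer H2-DMb1 probe at 0.53. With median centring these were 4.09 (H2-Aa), 5.17 and 4.33 (H2-Ab1), 4.40 (H2-Eb1), 3.71 (Cd74), 2.08 (H2-DMa), 2.71 (H2-DMb1), 0.40 (H2-DMb2), 0.24 and 0.28 (H2-Oa) and 1.3 (Ciita). With all spots in normexp the second H2-Ab1 probe was at 0.04 and H2-Eb1 at 0.06. With the slide as a block the first 2 H2-Ab1 probes were at 0.72 and 0.26 and H2-Eb1 at 0.23. With the replicate block and slide H2-Ab1 probes 1 and 3 were at 1.20 and -0.25 and Cd74 at 1.12. With 1 array left out, the dimmer H2-Aa probe ranged from -0.60 to 0.36, H2-Ab1 probe 2 from -0.20 to 0.18, H2-Ab1 probe 3 from -0.08 to 0.16 and H2-Eb1 from -0.18 to 0.15 (0.01 without day 10 blood of mouse 834). The highest of each came without TIC of mouse 833 and the lowest without TIC of mouse 832.

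In TIC minus day 0 blood, median centring turned H2-Aa to 3.1 on both probes, H2-Ab1 to 2.53, 3.02, 2.78 and 2.45, H2-Eb1 to 2.77, Cd74 to 1.37, H2-DMa to 1.21 and H2-DMb1 to 3.1 and 1.95. The dimmer H2-Aa probe was at 0.01 with Cy5 alone and ranged from -0.78 without TIC of mouse 832 to 0.18 without TIC of mouse 833. Between the bloods, the replicate block and slide together gave 0.14 for that probe and 0.30 for the dimmer H2-DMb1 probe. The cause of these shifts was not tested. Of the 15 probes, 7 were well above background on all day 10 blood arrays. Settings within a slide, the replicate block with 2 groups only and the deposited ratio with the block were chosen after seeing the data.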
